A study of Gallus gallus with 32 samples.

Results

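Aminoacyl-tRNA synthetases were examined in liver from Arbor Acres broilers (meat chickens) whose diets held different amounts of added arginine. The genes were taken by name: every symbol made of 1 letter followed by ARS and at most 1 digit, together with EPRS, FARSA and FARSB. This rule found 34 of the 25619 genes in the deposited table. A symbol that ends in 2 was counted as mitochondrial (15 genes), and the other 19 were counted as cytosolic. The cytosolic arginine enzyme, also known as RARS1, is listed as RARS, and the symbols below are those of the table. Liver RNA was sequenced in 32 libraries, 8 for each of 4 diets, after selection of polyadenylated RNA. The study's design text counts 48 samples, and only these 32 libraries were available here. The diets were the control with 0 g/kg of added arginine and diets with 1.8, 9 and 18 g/kg. Strain and tissue were shared by all diets. The labels give no age, sex or base diet and do not say whether each library is a separate bird. The p-values therefore describe spread among libraries, and how much of it is technical is not known. In each diet a transcript of the female W chromosome was detected in some libraries and at 0 in others. The libraries of a diet were therefore not all from 1 bird.

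Each synthetase joins 1 amino acid to its transfer RNAs, and the charged transfer RNAs carry the amino acids to the ribosome. Most animals use separate nuclear genes for the enzymes of the cytosol and of the mitochondrion, while GARS and KARS are known in mammals to serve both. In mammals a group of the cytosolic enzymes sits in a multisynthetase complex on the scaffold proteins AIMP1, AIMP2 and EEF1E1, and several cytosolic synthetase genes are targets of ATF4, the transcription factor of the amino acid response.

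Values are TPM, a transcript abundance corrected for gene length, so levels of different genes are set side by side per length. Differences between diets are on log2(TPM + 1) with their standard error (SE). The hepatocyte marker list (17 genes, summed level 102770 to 195290 TPM per library, none listed at 0 in every library) fitted the liver label. Mitochondrially encoded transcripts took 16.04 to 25.6% of a library, and their group means ran 20.3%, 21.8%, 22.0% and 23.1% at 0, 1.8, 9 and 18 g/kg. TPM are shares of a library, so this share touches each value here, and its part in the differences was tested only by leaving those transcripts out. In bulk liver, fewer cells of a type and less RNA per cell cannot be told apart. Sequencing depth is unknown because only TPM were used.

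All 34 synthetases were above 0 in every library and all passed the filter of a mean of at least 1 TPM. KARS, the lysine enzyme, was the most abundant at 136 ± 23.4 TPM (SD, n = 32 libraries). The alanine enzyme AARS1 followed at 82.9 ± 28.6 TPM, the glycine enzyme GARS at 55.9 ± 17.5 TPM and the threonine enzyme TARS at 50.7 ± 25.3 TPM. Neighbours in this order overlapped across libraries, and even the lowest KARS value (102 TPM) was below the highest AARS1 value (137 TPM). The least abundant were the mitochondrial enzymes for glutamate, EARS2 (3.32 ± 0.86 TPM), and histidine, HARS2 (3.36 ± 1.06 TPM). The median of the gene means was 27.2 TPM over the 19 cytosolic genes and 6.12 TPM over the 15 mitochondrial ones, with a median of 8.22 TPM over all 11339 tested genes. Summed over a library, the cytosolic genes gave 464 to 999 TPM and the mitochondrial genes 109 to 176 TPM.

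**Figure D1:**
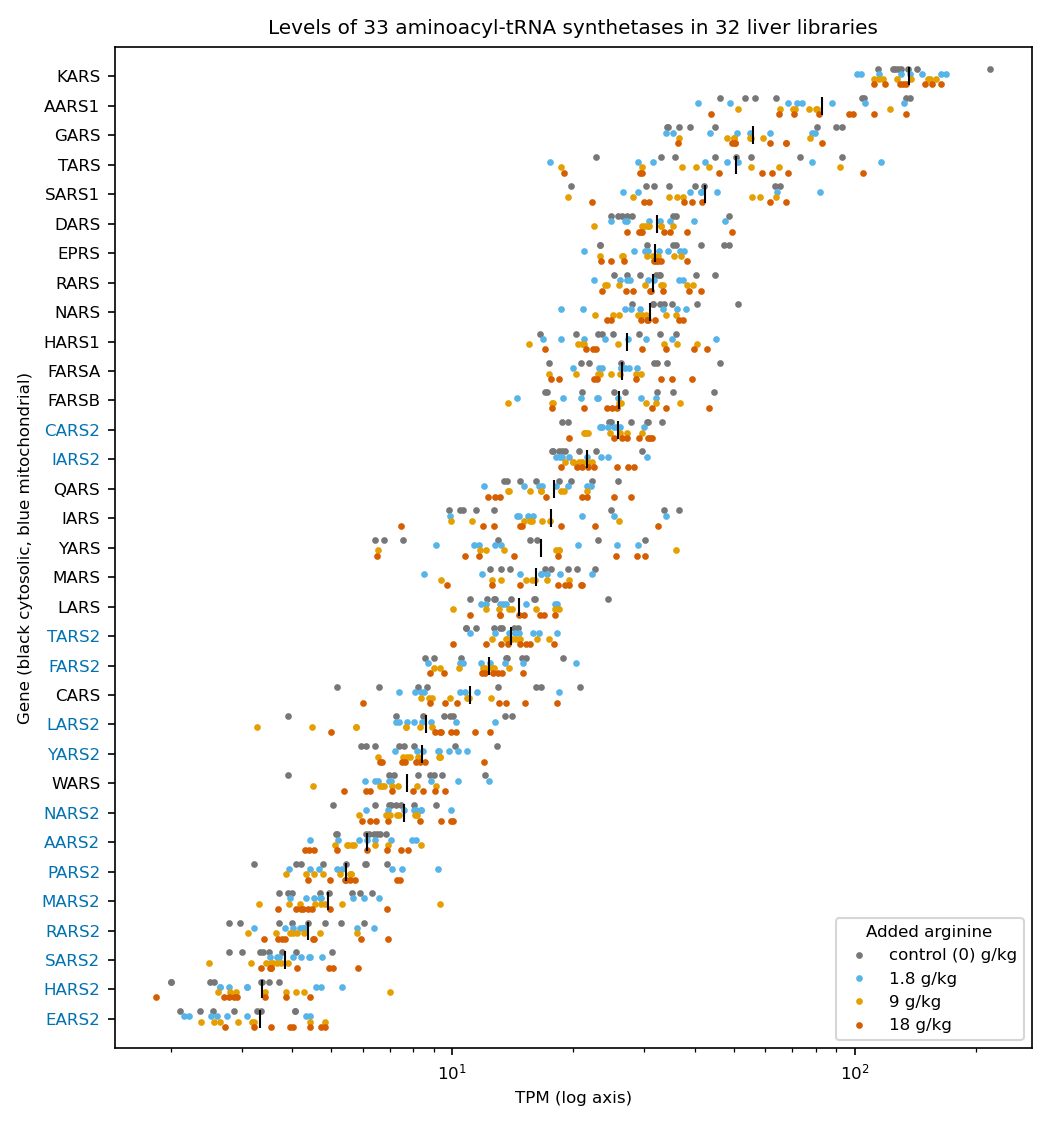
Levels of 33 of the 34 synthetases in each of the 32 libraries in TPM (log axis), ordered by mean, with 1 point per library coloured by added arginine and a black bar at the mean over all libraries. KARS lies highest (102 to 217 TPM), most mitochondrial genes (blue names) lie at the bottom, and the 4 diets are mixed in each row.

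For 12 amino acids a cytosolic gene was paired with the mitochondrial gene whose symbol matched it apart from a final digit. EPRS, FARSA and FARSB were left out of these pairs, although EARS2, PARS2 and FARS2 charge the same amino acids in the mitochondrion. The cytosolic gene was the higher one in all 32 libraries for 9 of these pairs. AARS1 stood 12.7-fold above AARS2 (median over libraries, range 5.13 to 29.8), the widest median gap of the 12. The leucine pair was the narrowest of the 9, with LARS 1.69-fold above LARS2 (range 1.12 to 5.63). The other 3 of the 12 pairs did not follow this order. For cysteine the mitochondrial gene was above the cytosolic one in every library, with CARS2 at 25.8 ± 3.86 TPM and CARS at 11.1 ± 3.80 TPM (SD, n = 32). For isoleucine, IARS exceeded IARS2 in 7 of 32 libraries (means 17.6 ± 7.89 and 21.6 ± 3.43 TPM). For tyrosine, YARS exceeded YARS2 in 29 of 32 libraries (16.6 ± 8.08 and 8.41 ± 1.64 TPM). How the submitters' tools assigned reads shared by related genes such as HARS1 and HARS2 is not given in the sources used here.

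The arginine enzymes are the ones that charge the supplemented amino acid. RARS stood between 25.3 and 44.9 TPM in control, with a median of 32.3 TPM. Its lowest, median and highest values were 22.5, 29.2 and 37.4 TPM at 1.8 g/kg, 23.9, 31.6 and 39.6 TPM at 9 g/kg, and 23.5, 31.1 and 41.5 TPM at 18 g/kg. The 4 groups overlapped over nearly their whole ranges. The group means were 33.0 ± 6.59, 29.97 ± 5.18, 31.1 ± 6.06 and 31.8 ± 5.98 TPM at 0, 1.8, 9 and 18 g/kg (SD, n = 8 each). The differences from control were -0.13, -0.09 and -0.05 (SE 0.13 each), with 95% intervals of -0.40 to 0.14 at 1.8 g/kg, -0.36 to 0.19 at 9 g/kg and -0.32 to 0.22 at 18 g/kg. None passed the test (limma, Benjamini-Hochberg adjusted p = 1, 0.976 and 1).

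RARS2, the mitochondrial arginine enzyme, ran from 2.79 to 6.05 TPM in control with a median of 4.19 TPM. Its lowest, median and highest values were 3.22, 4.22 and 6.38 TPM at 1.8 g/kg, 3.10, 4.07 and 5.80 TPM at 9 g/kg, and 3.41, 4.17 and 6.94 TPM at 18 g/kg. These groups overlapped as well, and their medians were nearly equal. The differences were 0.07, 0.00 and 0.09 (SE 0.14 each; limma, adjusted p = 1 at each dose), and the 95% intervals reached at most 0.37 above and 0.28 below 0. RARS was 7.26-fold above RARS2 in the median library (4.98 to 9.86). The intervals of both genes leave room for moderate differences in either direction.

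**Figure D2:**
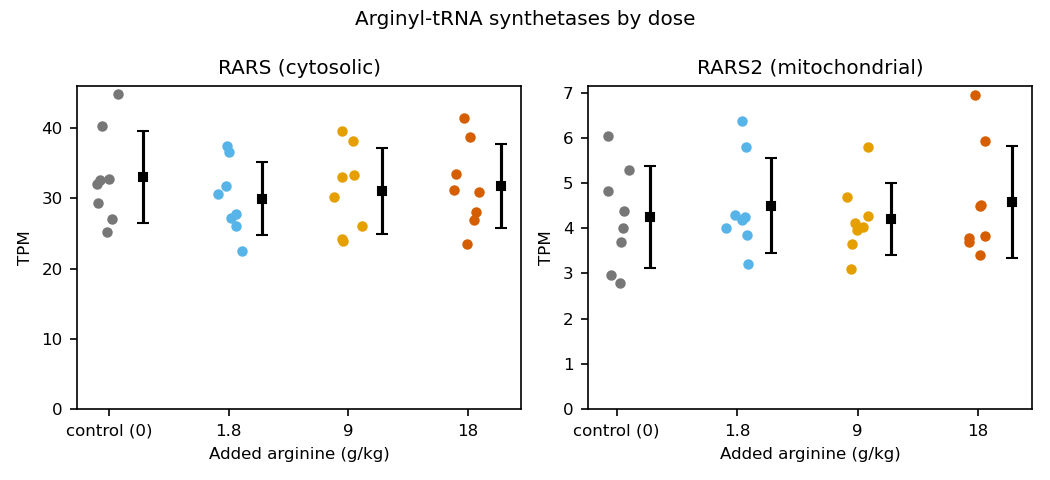
TPM of RARS (left) and RARS2 (right) at 0, 1.8, 9 and 18 g/kg of added arginine, 1 point per library, with black squares and bars for the mean and SD of 8 libraries. Group means lie between 29.97 and 33.0 TPM for RARS and between 4.20 and 4.58 TPM for RARS2, and the groups overlap.

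No synthetase passed the test at any dose. At 1.8 g/kg against control 0 of 34 were called, as were 0 of all 11339 tested genes (0%; limma, Benjamini-Hochberg adjusted p below 0.05), and the same was true at 9 g/kg (0%) and at 18 g/kg (0%). At an unadjusted p below 0.05, limma gave 1 of 34 members at 1.8 g/kg against 2.34% of all tested genes, 1 at 9 g/kg against 4.87%, and 0 at 18 g/kg against 2.44%. One gene in 34 is close to these background shares. The comparisons share the control libraries.

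The member with the smallest p at 1.8 g/kg was NARS, the asparagine enzyme. It stood at 18.6, 28.5 and 38.1 TPM (lowest, median and highest) at 1.8 g/kg and at 28.0, 33.2 and 51.2 TPM in control. The ranges overlapped, with 2 of 8 libraries at 1.8 g/kg above the control mean. The difference was -0.30 ± 0.14 (SE; unadjusted p = 0.0333, limma adjusted p = 1). NARS also had values below control at 9 g/kg (-0.27 ± 0.14) and 18 g/kg (-0.20 ± 0.14). Without control replicate 3, the library at 51.2 TPM, these were -0.20 and -0.12. EPRS, which charges glutamate and proline from a single protein, differed by -0.15, -0.19 and -0.20 (SE 0.15 each) at the 3 doses. Its means were 31.5 ± 5.27, 30.4 ± 4.71 and 30.3 ± 4.93 TPM at 1.8, 9 and 18 g/kg, against 35.7 ± 9.84 TPM in control. The control SD of EPRS was the largest of the 4 groups.

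At 9 g/kg the smallest p belonged to LARS2, the mitochondrial leucine enzyme. It stood at 3.27, 6.74 and 8.89 TPM (lowest, median and highest) at 9 g/kg and at 3.90, 9.71 and 14.1 TPM in control. All 8 libraries at 9 g/kg were below the control mean of 9.58 TPM, but the ranges overlapped, and control replicate 7 was the lowest control library. The difference was -0.48 ± 0.19 (unadjusted p = 0.0186, limma adjusted p = 0.906). It stood at -0.63 without control replicate 7 and at -0.37 without replicate 1 at 9 g/kg. The other doses did not share this value, with 8.82 ± 1.86 TPM at 1.8 g/kg and 9.59 ± 2.19 TPM at 18 g/kg, against 9.58 ± 3.27 TPM in control. HARS2 (0.31 ± 0.16) and TARS2, the mitochondrial threonine enzyme (0.20 ± 0.10), were the higher members with the smallest p at 9 g/kg. Without replicate 1 at 9 g/kg the HARS2 difference was 0.20. TARS2 had 7 of 8 libraries above the control mean at both 1.8 and 9 g/kg, with 14.6 ± 2.22 and 14.6 ± 1.56 TPM against 12.6 ± 1.47 TPM in control, and did not pass (limma, adjusted p = 1 and 0.956). YARS completed the higher genes named at 9 g/kg (0.22 ± 0.33). At 1.8 g/kg YARS2 (0.19 ± 0.13) and HARS2 (0.24 ± 0.16) were named beside TARS2 (0.19 ± 0.10), with limma adjusted p = 1 for all 3.

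At 18 g/kg EARS2, which charges glutamate in the mitochondrion, had the smallest p. Its lowest, median and highest values were 2.73, 3.99 and 4.84 TPM at 18 g/kg and 2.11, 3.07 and 4.07 TPM in control. The ranges overlapped in their middle, and 7 of 8 libraries at 18 g/kg were above the control mean (difference 0.28 ± 0.14, unadjusted p = 0.0506, limma adjusted p = 1). The serine enzyme SARS2 (0.18 ± 0.10) and IARS2 (0.17 ± 0.11) came next, and AARS2 was the third lower gene named (-0.08 ± 0.12). EARS2 also had the smallest p of the members for a linear trend on the dose, 0.017 ± 0.0068 per g/kg (unadjusted p = 0.0193, limma adjusted p = 1). That trend test gave 1 of 34 members at an unadjusted p below 0.05 against 2.03% of all genes, with 0 called (0%). Any difference among the 4 diets gave 1 member, LARS2 (unadjusted p = 0.0408), against 3.18%, again with 0 called (0%).

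Pairs of supplemented diets likewise gave 0 called members and 0 called genes with limma (0% in each pair). At an unadjusted p below 0.05 there were 2 members at 9 against 1.8 g/kg (background 2.83%), and LARS2 was 1 of them (-0.42 ± 0.19). There was 1 member at 18 against 1.8 g/kg (2.04%), EARS2 (0.32 ± 0.14). At 18 against 9 g/kg there were 2 (5.69%), LARS2 (0.52 ± 0.19) and SARS2 (0.22 ± 0.10). Of the 4 diets, LARS2 had its lowest mean at 9 g/kg (6.48 TPM). All the comparisons that gave LARS2 share the 8 libraries at 9 g/kg, so they are not separate observations.

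As classes, the cytosolic enzymes had a median difference from control of -0.07, -0.09 and 0.02 at 1.8, 9 and 18 g/kg, and the mitochondrial enzymes one of 0.08, 0.00 and 0.09. All tested genes had medians of 0.03, 0.00 and 0.02. Cytosolic members were higher than control in 6, 4 and 10 of 19, and mitochondrial members in 11, 8 and 12 of 15, while 59, 50.6 and 55.6% of all tested genes were higher. Leaving out mitochondrially encoded transcripts rescales every gene of a library by the same factor, and it moved members and other genes alike. The share of higher members moved from 50, 35.3 and 64.7% to 61.8, 47.1 and 73.5%, while 65, 56 and 67% of all tested genes were then higher. The cytosolic median was then -0.04, -0.06 and 0.06 and the mitochondrial median 0.11, 0.03 and 0.13, beside medians of 0.05, 0.03 and 0.07 over all tested genes. After median-ratio rescaling the cytosolic median at 18 g/kg turned to -0.0033. Leaving out control replicate 3 turned the cytosolic median at 1.8 g/kg to 0.03 and moved that at 9 g/kg to -0.00021. In a library, the mean log2 level of the cytosolic class minus that of the mitochondrial class averaged 1.70 ± 0.25, 1.76 ± 0.20 and 1.75 ± 0.28 at 1.8, 9 and 18 g/kg, against 1.83 ± 0.23 in control (SD, n = 8 each), so the groups differed by less than 1 SD.

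Cell type markers were compared in the same way, and none of those below was called (limma, 0 at each dose). Beside them, 59, 50.6 and 55.6% of all tested genes were higher than control at 1.8, 9 and 18 g/kg. An unadjusted p below 0.05 (limma) was reached by 2.34, 4.87 and 2.44% of all tested genes. Of 13 macrophage and Kupffer cell markers 12, 13 and 13 were higher than control at 1.8, 9 and 18 g/kg, with median differences of 0.28, 0.39 and 0.51. Their summed level ran from 470 to 3814 TPM at 1.8 g/kg, 450 to 2187 TPM at 9 g/kg and 442 to 2110 TPM at 18 g/kg, against 382 to 2383 TPM in control. Of 14 endothelial markers 14, 14 and 13 were higher (medians 0.35, 0.36 and 0.23), with sums of 132 to 241, 144 to 246 and 156 to 189 TPM, against 61.9 to 214 TPM in control. Of 15 tested hepatocyte markers 4, 3 and 5 were higher (medians -0.05, -0.10 and -0.09). Of 11 stellate and fibroblast markers 3, 3 and 6 were higher (medians -0.25, -0.27 and 0.02). Of 9 tested T and NK cell markers 8, 8 and 7 were higher (medians 0.19, 0.31 and 0.23). At an unadjusted p below 0.05 (limma) were 2, 4 and 1 of the endothelial markers at the 3 doses. The T and NK cell list had 1, 1 and 3 such genes, and the hepatocyte list 0, 1 and 0. The stellate and fibroblast list had 0, 0 and 2, and the macrophage and Kupffer cell list 0 at each dose. The lists for B and plasma cells, heterophils, erythrocytes and cholangiocytes had only 3 or 4 tested genes each. Of 4 B and plasma cell markers 4, 4 and 4 were higher, with 1, 2 and 0 at an unadjusted p below 0.05 (limma). Of 4 erythrocyte markers 4, 4 and 2 were higher, with 0, 1 and 0. Of 3 heterophil markers 3, 2 and 3 were higher, and of 4 cholangiocyte markers 2, 2 and 3, with 0 at each dose in both lists. None of the markers in the lists described was at 0 in every library. The summed levels overlapped between diets, and their part in the synthetase differences was not tested.

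**Figure D3:**
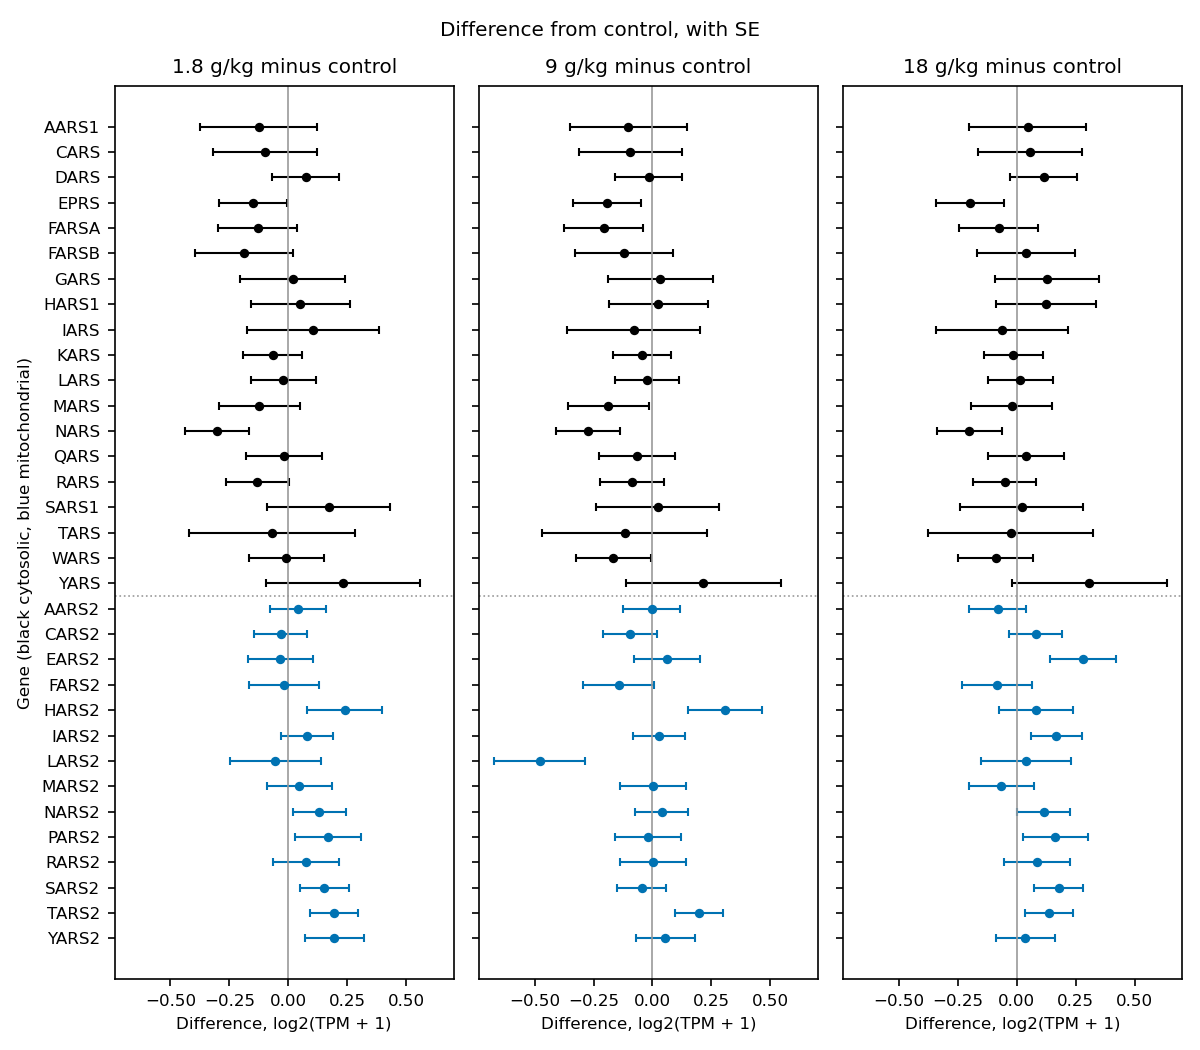
Difference of 33 of the 34 synthetases from control on log2(TPM + 1) at 1.8, 9 and 18 g/kg (left to right), with bars of 1 SE, cytosolic genes in black above the dotted line and mitochondrial genes in blue below it. LARS2 at 9 g/kg (-0.48) lies farthest from 0, and no gene shown passed the test at any dose.

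The most abundant synthetases were close to their control levels at each dose. KARS averaged 133 ± 25.6, 134 ± 18.9 and 137 ± 18.0 TPM at 1.8, 9 and 18 g/kg, against 140 ± 32.4 TPM in control. Control replicate 3 alone reached 217 TPM. AARS1 averaged 78.7 ± 29.8, 77.3 ± 20.7 and 87.9 ± 28.7 TPM at the 3 doses, against 87.6 ± 37.1 TPM in control. GARS averaged 54.8 ± 17.6, 54.0 ± 11.7 and 58.2 ± 14.4 TPM, against 56.6 ± 26.4 TPM in control. For these 3 genes the differences from control were between -0.13 and 0.13 with SE of 0.12 to 0.25, inside the spread between libraries. WARS, the tryptophan enzyme, which interferon induces in mammals, averaged 8.07 ± 2.24, 7.04 ± 1.34 and 7.49 ± 1.52 TPM, against 8.20 ± 2.35 TPM in control. It was compared with a list of 30 interferon response genes because control replicate 7 had the highest summed level of that list, 21868 TPM against a median of 2486 TPM over all libraries. That library ranked 1 for the list mean and 12 for WARS. Over the 32 libraries, centred within diets, WARS and the list mean had Pearson's r of 0.14 (permutation p = 0.443) and Spearman's rho of 0.25 (permutation p = 0.16), and r was 0.24 without the 2 libraries farthest from the median of the list. This was 1 relation, and the p-values are unadjusted.

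Libraries of the same diet differed more than the diets did for several cytosolic enzymes. TARS ranged 6.64-fold over the 32 libraries (17.5 to 116 TPM), YARS 5.60-fold (6.42 to 35.9 TPM) and IARS 4.92-fold (7.45 to 36.7 TPM). The within-diet SD on log2(TPM + 1) was 0.74 for TARS, 0.69 for YARS, 0.59 for IARS, 0.54 for SARS1 and 0.51 for AARS1. The median SD was 0.35 for the cytosolic genes and 0.27 for the mitochondrial ones, with 0.33 over all tested genes. TARS2 and SARS2 had the smallest SD of the members, 0.19 each. In control, replicates 2, 3 and 8 had the highest cytosolic class means (5.31, 5.34 and 5.15 on the log2 scale), and the other 5 control libraries lay between 4.43 and 4.79.

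Members varied together across libraries. After centring within diets, the median Spearman correlation over 32 libraries was 0.50 for pairs of cytosolic genes (171 pairs), 0.33 for pairs of mitochondrial genes (105 pairs) and 0.32 between the classes (285 pairs), with 0.15 for all pairs of tested genes. The 8 cytosolic enzymes that belong to the multisynthetase complex in mammals had a median of 0.59 among themselves. The other 11 cytosolic enzymes had 0.50 among themselves and 0.48 with the complex enzymes. The points of each pair share library, depth and scaling, so these values are descriptions. Median-ratio rescaling divides each library by 1 factor, and these factors ran from 0.78 to 1.29. The correlations between genes given here were not recomputed after it, so the part of a common scale in them was not tested. The highest were HARS1 with YARS (0.91) and FARSB, a subunit of the phenylalanine enzyme, with RARS (0.90). GARS with IARS followed at 0.86. RARS itself also followed KARS (0.86) and LARS (0.83), which like RARS belong to the complex. Its other complex partners had lower values, with DARS at 0.68, QARS at 0.62, IARS at 0.60, EPRS at 0.51 and MARS at 0.475. Outside the complex, YARS2 (0.76), NARS (0.74) and HARS2 (0.71) were above these lower partners. By the same measure, RARS and RARS2 had 0.58. Some pairs ran the other way, the lowest being QARS, the glutamine enzyme, with FARS2, the mitochondrial phenylalanine enzyme (-0.38). The genes most like RARS among all tested were NUTF2, a nuclear transport factor for Ran (0.92), ATAD3B (0.91) and WDR77, a partner of the methyltransferase PRMT5 (0.91). The genes most like RARS2 were LTV1, a ribosome assembly factor (0.81), NUCKS1 (0.80) and the importin KPNA3 (0.80). No synthetase was among these 6 genes.

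A reference table of the assembly GRCg7b, used only for names, gene order and chromosome, placed the 34 members on 19 chromosomes. HARS1 and HARS2 were next to each other with 0 genes between them, and their Spearman correlation was 0.44. IARS2 and EPRS had 4 genes between them and a correlation of 0.67. All other neighbouring members of a chromosome were at least 108 genes apart, and their correlations ran from -0.07 for AARS1 and KARS to 0.83 for RARS and LARS.

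Part of the cytosolic variation followed asparagine synthetase (ASNS), an enzyme that makes asparagine and a known ATF4 target. ASNS was chosen for this comparison after its values were seen, and the adjusted permutation p-values below do not account for that choice. It ran from 5.05 to 77.8 TPM over the 32 libraries. Its group means were 33.6 ± 26.0, 28.0 ± 18.2, 16.7 ± 12.6 and 25.8 ± 22.4 TPM at 0, 1.8, 9 and 18 g/kg, and it was not called at any dose (limma, adjusted p = 1, 0.956 and 1). Of 34 relations tested on log2(TPM + 1) after centring within diets, 10 of 19 cytosolic genes and 0 of 15 mitochondrial genes were positively related to ASNS at a Benjamini-Hochberg adjusted permutation p below 0.05. All 10 passed by Pearson's r and by Spearman's rho. The share of all tested genes that would pass this adjusted p is not given, so the 10 have no background beside them. By the different cut of r above 0.5, 9 members passed (26.5%), as did 1.58% of all tested genes. Several cytosolic synthetase genes are known ATF4 targets in mammals, but the part of that response in these relations was not tested. Genes are also not independent replicates.

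The isoleucine enzyme IARS had the strongest relation, with r = 0.81 and rho = 0.77 (permutation p = 1e-05 for both, the smallest that 100000 permutations can give, adjusted p = 6.8e-05). Without the 2 libraries farthest from the ASNS median, replicate 6 at 18 g/kg and replicate 5 at 9 g/kg, r was 0.76, and it ran from 0.56 to 0.91 within the single diets. GARS (r = 0.79, rho = 0.80), SARS1 (0.77, 0.73) and TARS (0.76, 0.78) had the same smallest p by both measures. These 4 kept r of 0.70 to 0.77 without the 2 farthest libraries. HARS1, YARS, the methionine enzyme MARS, CARS, AARS1 and QARS followed with r of 0.67, 0.66, 0.65, 0.59, 0.57 and 0.47. In the same order, their lowest r within a single diet of 8 libraries was 0.40, 0.59, 0.36, 0.40, 0.29 and 0.23. For GARS, SARS1 and TARS it was 0.71, 0.70 and 0.69. EPRS had r = 0.42 (adjusted permutation p = 0.055). The arginine enzymes did not pass. RARS had r = 0.12 (permutation p = 0.513, adjusted 0.671) and rho = 0.17, and RARS2 had r = -0.16 (permutation p = 0.392, adjusted 0.606) and rho = -0.18. KARS, the most abundant member, had r = -0.04 (adjusted permutation p = 0.858). The lowest value was that of AARS2, r = -0.40, which did not pass (adjusted permutation p = 0.0711). Whether r differs between the cytosolic and mitochondrial classes was not tested.

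**Figure D4:**
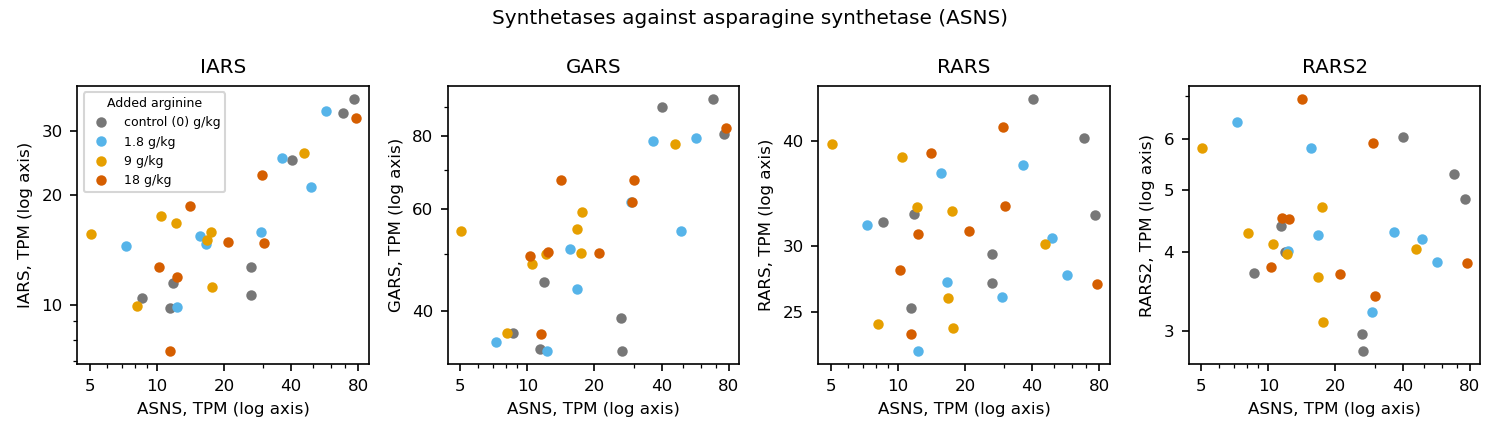
IARS, GARS, RARS and RARS2 (left to right) against ASNS, both in TPM on log axes, 1 point per library coloured by added arginine. IARS (r = 0.81) and GARS (r = 0.79) rise with ASNS in every diet, while RARS (r = 0.12) and RARS2 (r = -0.16) show no such order.

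Other genes of the amino acid response did not all behave like ASNS. The median r with the 19 cytosolic synthetases was 0.57 for ATF4, 0.55 for MTHFD2, a mitochondrial folate enzyme, and 0.56 for the cationic amino acid transporter SLC7A1, which imports arginine. These were the highest medians of the 21 tested response genes, and STC2 had the lowest (-0.42). The median was -0.30 for PSAT1 and -0.16 for PHGDH, both of serine synthesis, and -0.10 for CHAC1, a glutathione-degrading enzyme. Other genes also lay between the extremes, such as SLC38A2 (-0.29), ATF3 (0.19) and SESN2 (0.28). RARS had r = 0.57 with ATF4 and 0.42 with SLC7A1. SLC7A1 averaged only 1.54 TPM, near the filter of 1 TPM. The same medians over all tested genes are not given for this paragraph's genes. These are descriptions over 32 libraries that share depth and scaling.

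The threonine enzyme TARS was the 1 synthetase called in a limma comparison, and it was called between libraries with and without HINTW, a transcript of the W chromosome, which only female birds carry. HINTW was detected in 12 libraries (20.1 to 37.7 TPM) and listed at 0 in 20. The 12 were 2, 3, 4 and 3 of 8 libraries at 0, 1.8, 9 and 18 g/kg. These are sets of libraries defined from the data, not groups of the study. The reference table placed TARS and NARS on chromosome Z. TARS stood at 17.5, 29.6 and 50.8 TPM (lowest, median and highest) where HINTW was detected and at 29.3, 57.1 and 116 TPM where it was at 0. The ranges overlapped, but all 12 libraries with HINTW lay below the median of the other 20. With diet in the model, the difference was -0.99 ± 0.20 (limma, adjusted p = 0.00144, means 31.0 ± 10.9 and 62.5 ± 24.1 TPM, SD, n = 12 and 20). Of 34 members 1 was called, against 2.41% of all tested genes (1.7% called as lower). At an unadjusted p below 0.05, 4 of 34 members differed, all lower, against 8.37% of all tested genes (5.15% lower). Of 513 tested Z-linked genes 34.7% were called lower, and their median difference was -0.35.

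Other values moved with this split. All 19 cytosolic genes had lower values where HINTW was detected (median -0.15), while 9 of 15 mitochondrial genes did (median -0.02). Over all tested genes 5617 of 11339 were lower, with a median of 0.0018, and 18 of the 19 cytosolic genes did not pass. ASNS was also lower there, with a median of 10.98 TPM against 26.4 TPM (-0.87 ± 0.32, limma, adjusted p = 0.251). With ASNS added to the model, a fit chosen after seeing the data, the TARS difference was -0.62 (limma, adjusted p = 0.0391). TARS followed ASNS within both sets of libraries, with r of 0.58 in the 12 and 0.76 in the 20. By the same measure IARS had 0.69 and 0.87, GARS 0.77 and 0.78, and SARS1 0.59 and 0.81. HARS1 had 0.35 and 0.79, YARS 0.47 and 0.72, and MARS 0.58 and 0.58. CARS had 0.73 and 0.51, AARS1 0.77 and 0.39, and QARS 0.46 and 0.41. NARS, the other Z-linked member, had medians of 29.4 TPM where HINTW was detected and 32.7 TPM where it was at 0. Of the 12 libraries with HINTW, 10 lay below the NARS median of the other 20. It did not pass (-0.19 ± 0.10, limma, unadjusted p = 0.0561, adjusted p = 0.615). After median-ratio rescaling the NARS difference was -0.19 ± 0.06 and did not pass (limma, unadjusted p = 0.00588, adjusted p = 0.149). RARS (-0.08 ± 0.10) and RARS2 (0.09 ± 0.10) did not pass either. The part of these differences in the diet comparisons was tested by adding HINTW to the model. The TARS difference from control then changed sign at 1.8, 9 and 18 g/kg (0.05, 0.13 and 0.10, against -0.07, -0.12 and -0.03 without HINTW). The cytosolic median difference moved from -0.07 to -0.02 at 1.8 g/kg and from -0.09 to -0.03 at 9 g/kg. Still no synthetase was called at any dose.

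**Figure D5:**
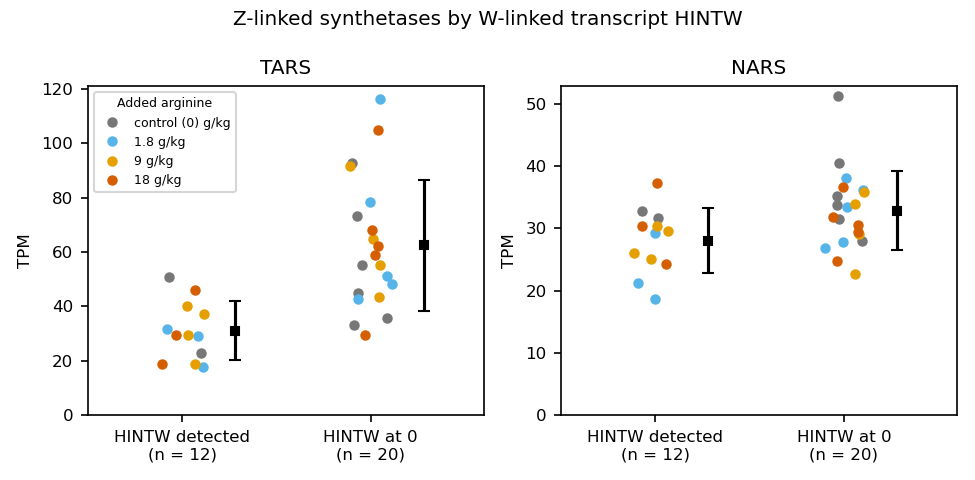
TPM of the Z-linked synthetases TARS (left) and NARS (right) in the 12 libraries with HINTW and the 20 libraries with HINTW at 0, coloured by added arginine, with black squares and bars for mean and SD. TARS averages 31.0 TPM in the 12 libraries and 62.5 TPM in the 20, whereas the NARS values overlap over most of their range.

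The partners of the synthetases were compared as lists. The 3 scaffold proteins of the multisynthetase complex had differences of 0.04 for AIMP1, 0.22 for AIMP2 and 0.18 for EEF1E1 at 1.8 g/kg. At 18 g/kg the same genes had -0.08, 0.17 and -0.10, and 0 of 3 were called at any dose (limma, 0 also at an unadjusted p below 0.05). Among 17 tested genes of transfer RNA editing and of the indirect charging of mitochondrial transfer RNAs, 0 were called at any dose, and 2, 1 and 1 had an unadjusted p below 0.05 at 1.8, 9 and 18 g/kg, against 2.34, 4.87 and 2.44% of all tested genes. GATC, a subunit of the amidotransferase that turns the glutamate attached by EARS2 into glutamine, was among them at each dose. It averaged 32.2 ± 8.15, 33.5 ± 4.45 and 34.3 ± 3.497 TPM at 1.8, 9 and 18 g/kg, against 25.4 ± 4.53 TPM in control. The differences were 0.32, 0.39 and 0.43 (SE 0.12 each; limma, adjusted p = 1, 0.792 and 1), and the 3 comparisons share the control libraries. The other subunits of this enzyme had smaller differences. QRSL1 had differences of -0.05, 0.11 and 0.06 (SE 0.18 each), and GATB had 0.03, -0.11 and 0.10 (SE 0.16 each), at the same doses. The second such gene at 1.8 g/kg was PSTK, the kinase of the selenocysteine pathway (0.21 ± 0.10). Of 7 tested cytosolic elongation factors and 8 mitochondrial translation factors 0 were called at any dose, and 1 value, that of EIF5A at 18 g/kg (0.26 ± 0.11), had an unadjusted p below 0.05. Of 21 tested amino acid response genes 10, 10 and 9 were higher than control at 1.8, 9 and 18 g/kg, against 59, 50.6 and 55.6% of all tested genes, and 0 were called. SLC7A5, the transporter of large neutral amino acids, had an unadjusted p below 0.05 at 9 g/kg (0.43 ± 0.20) and at 18 g/kg (0.46 ± 0.20).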

How the data were processed

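Messenger RNA of liver was sequenced from strand-specific libraries, per the labels' protocols. The authors deposited 1 table of TPM for 25619 genes and 32 libraries, with column sums of 998707 to 999281. The submitters' processing notes list RSEM, StringTie, HISAT2 and fastp. Versions, roles and the genome build are not given in the sources used here. Depth is therefore unknown and no counting interval is given. The authors' values were taken as log2(TPM + 1), and 11339 genes averaging 1 TPM or more were fitted with 1 mean per diet in limma 3.58.1 (R 4.3.3, trended eBayes). P-values are 2-sided and adjusted by Benjamini-Hochberg over all 11339 genes, and genes below 0.05 were called. The fit was tested on simulated data with known changes, all larger than the diet differences given here for the synthetases. Values were shuffled gene by gene, so the correlation between genes was not kept. That test therefore cannot show how the fit handles differences of the size given here. Libraries were grouped by the dose in the labels. They were not paired by replicate number, whose meaning the labels do not give. Deviations from the group means had a median correlation of 0.03 for same-number pairs of libraries and -0.0067 for different-number pairs. Of 48 same-number pairs, 18 were over 0.1. The share of different-number pairs over 0.1 is not given, so this count cannot be judged as high or low.

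Genes given in full were RARS, RARS2, WARS, AARS1, GARS, EPRS, KARS, the Z-linked members and, per dose, the 3 higher and 3 lower members with the smallest p. Correlations used values centred within diets, and permutation tests used 100000 permutations. Members and lists were chosen with earlier results of these data known. Alternatives were other pseudocounts, filters, scalings, variance models, covariates, a replicate block, only the 16 libraries of a comparison, and leaving out each library. One member is included in all counts, medians and fits but is not reported here by name or drawn in the figures.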

Additional observations from a re-analysis of the deposited data

Results flagged for a closer look

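A single library stood far from the other 7 of its diet in 10 of 136 combinations of a synthetase and a diet (7.35%), judged by its gap to the nearest library relative to the range of the group. The cut is set to flag about 1 in 20 groups of independent, normally distributed values. TPM of members that vary together need not follow that rate, which was not measured here. In control replicate 3, KARS stood at 217 TPM with the next library at 143 TPM, and LARS at 24.4 TPM with the next at 16.1 TPM. Replicate 8 at 9 g/kg was the lowest of its diet for DARS (22.6 TPM, next 29.6 TPM) and for WARS (4.50 TPM, next 6.63 TPM). Replicate 8 at 18 g/kg was the lowest for LARS2 (5.00 TPM, next 9.04 TPM) and for CARS2 (19.5 TPM, next 25.2 TPM). Replicate 2 at 18 g/kg was the highest for MARS2 (6.90 TPM, next 4.97 TPM) and for YARS2 (11.96 TPM, next 8.57 TPM). CARS2 reached 30.01 TPM in replicate 4 at 1.8 g/kg (next 26.2 TPM), and MARS2 reached 9.32 TPM in replicate 1 at 9 g/kg (next 5.31 TPM). The median-ratio factor was 1.20 in control replicate 3 and 1.29 in replicate 4 at 1.8 g/kg. At 9 g/kg it was 1.09 in replicate 1 and 0.78 in replicate 8. At 18 g/kg it was 1.13 in replicate 2 and 0.88 in replicate 8. The part of whole-library scale in these flags was not tested.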

How the results depend on the processing

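Under every alternative run for it, 0 synthetases were called in each comparison of diets, and 1, TARS, was called between libraries with and without HINTW. With a replicate block on the numbers in the labels, 0 synthetases were called at each dose and the TARS difference by HINTW was -0.95 (limma, adjusted p = 0.017). Leaving out each of the 32 libraries in turn gave TARS differences of -1.10 to -0.92, and its limma adjusted p ran from 0.000333 to 0.0391 over all alternatives. The genes called by HINTW numbered 273, between 190 with a filter at a mean of 5 TPM and 316 without a filter. Leaving out each library moved the cytosolic median between -0.11 and 0.03 at 1.8 g/kg, -0.15 and -0.00021 at 9 g/kg, and -0.06 and 0.10 at 18 g/kg. The mitochondrial median moved between 0.03 and 0.15, -0.05 and 0.05, and 0.05 and 0.13 at the same doses. The correlation of EPRS with ASNS was 0.54 after median-ratio rescaling and 0.42 without it, and the cause was not tested. The smallest differences that could be seen are set by the spread between libraries, since no depth is known.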
